A study of Mus musculus with 43 samples.

Results

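Respiratory complex I is the first enzyme of the mitochondrial respiratory chain, and the genes described here are those of the screened library whose symbol starts with Nduf. They were 38 of the 2078 genes in the library, targeted by 190 of its 10390 gene-targeting single-guide RNAs (sgRNAs), and every one of them carried 5 sgRNAs. By function, 7 encode core subunits, 29 encode accessory subunits, and Ndufa4 and Ndufa4l2 share the prefix without being complex I subunits in the usual sense, since Ndufa4 is now assigned to complex IV and Ndufa4l2 is its paralogue. The members were defined by the symbol prefix. None of the 38 was an assembly factor of the Ndufaf family.

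As background, complex I takes electrons from NADH, passes them along a chain of iron-sulfur clusters to ubiquinone and pumps protons across the inner mitochondrial membrane. Its core subunits carry the catalytic groups. They divide into a module that oxidizes NADH (Ndufv1, Ndufv2 and Ndufs1), a module that reduces ubiquinone (with Ndufs3, Ndufs7 and Ndufs8) and a membrane arm whose core subunits are encoded by mitochondrial DNA. The accessory subunits surround this core and serve its assembly and stability, and activated CD8+ T cells are known to use respiration while they divide.

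The screen measured how often each sgRNA was found in the genome of OT-I cells, which are CD8+ T cells with a T cell receptor for an ovalbumin peptide. They came from Cas9 knock-in mice and were transduced with a lentiviral library against metabolic genes. All groups shared this genotype and the CD90.1 marker of the vector. The T0 group (3 libraries) held cells of the day of adoptive T cell transfer (ACT) that were not transferred. All other groups held CD90.1+ cells sorted 7 days after ACT from recipients with orthotopic pancreatic KPC_OVA tumours, treated with anti-PD-1 or with IgG from the day of transfer. The methods describe the recipients as Cas9 knock-in mice and the mice as adults of either sex. Cells came from the primary tumour, lung, liver, peritoneal metastases, spleen, draining lymph nodes and nondraining lymph nodes. Of 43 samples, 41 had values, and the authors had excluded the other 2 after quality control. That left 3 libraries in each group, except 2 in the liver under IgG, 1 in the liver under anti-PD-1 and 2 in peritoneal metastases under IgG. The labels call the libraries of a group biological replicates, and how many mice stand behind a library was not used here. Editing itself was not measured, so an sgRNA that did not cut its gene cannot be told from a gene whose loss had no effect on abundance.

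Values are given as a level, which is log2(signal + 1) averaged over the 5 sgRNAs of a gene minus the same average over the 250 nontargeting sgRNAs in the same library, so that 0 is the level of cells with a neutral sgRNA. A change is the level in a sorted group minus the level in T0, on this log2 scale, which understates the change of sgRNAs near the bottom of the range. A gene was called at an adjusted p of at most 0.05 from limma with Benjamini-Hochberg adjustment over all 2078 genes. The signal was not a read count, so the depth behind a value is unknown and no counting interval is given. Libraries differed in how many sgRNAs had been lost from them. The lowest value was taken for each sgRNA among the libraries with the same replicate number. The share of nontargeting sgRNAs at their lowest value was at most 0.4% in T0. It was 0.4% to 38.4% in the 26 libraries of the 10 groups outside the lymph nodes. In the 12 lymph node libraries it was 49.6% to 94%, and these were therefore fitted apart. In 1 library titled as peritoneal metastases under anti-PD-1 (replicate 2) the tissue label names the spleen. It was used under its title, and counts without it are given where they rest on it.

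In T0, before transfer, sgRNAs against the Nduf genes stood near the nontargeting level. The median level of the 38 genes was -0.16, 0.06 and 0.36 in the 3 T0 libraries, where the median over all 2078 genes was between 0.18 and 0.26. The 7 core genes had median levels of -0.15 to 0.52 there. The T0 medians of the Nduf genes thus spread over a wider range than those of all genes.

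After transfer the Nduf sgRNAs were depleted in every organ outside the lymph nodes. Averaged over the 10 groups, 30 of the 38 genes were lower than in T0 and none was higher, where 16.1% of all genes were called lower and 0.192% higher. The median change of the 38 genes was -2.58, against -0.14 over all 2078 genes. The median change per library, each against the T0 library with the same replicate number, ran from -3.73 to -1.97 over the 26 libraries, so it was below 0 in every one, while that of all genes ran from -0.74 to 0.09. For 26 of the 38 genes (68.4%), all 26 sorted libraries lay below all 3 T0 libraries, as they did for 14% of all genes. The plot of the changes shows a continuous series from Ndufa1 to Ndufb4, followed by the 8 genes that were not called.

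**Figure D1:**
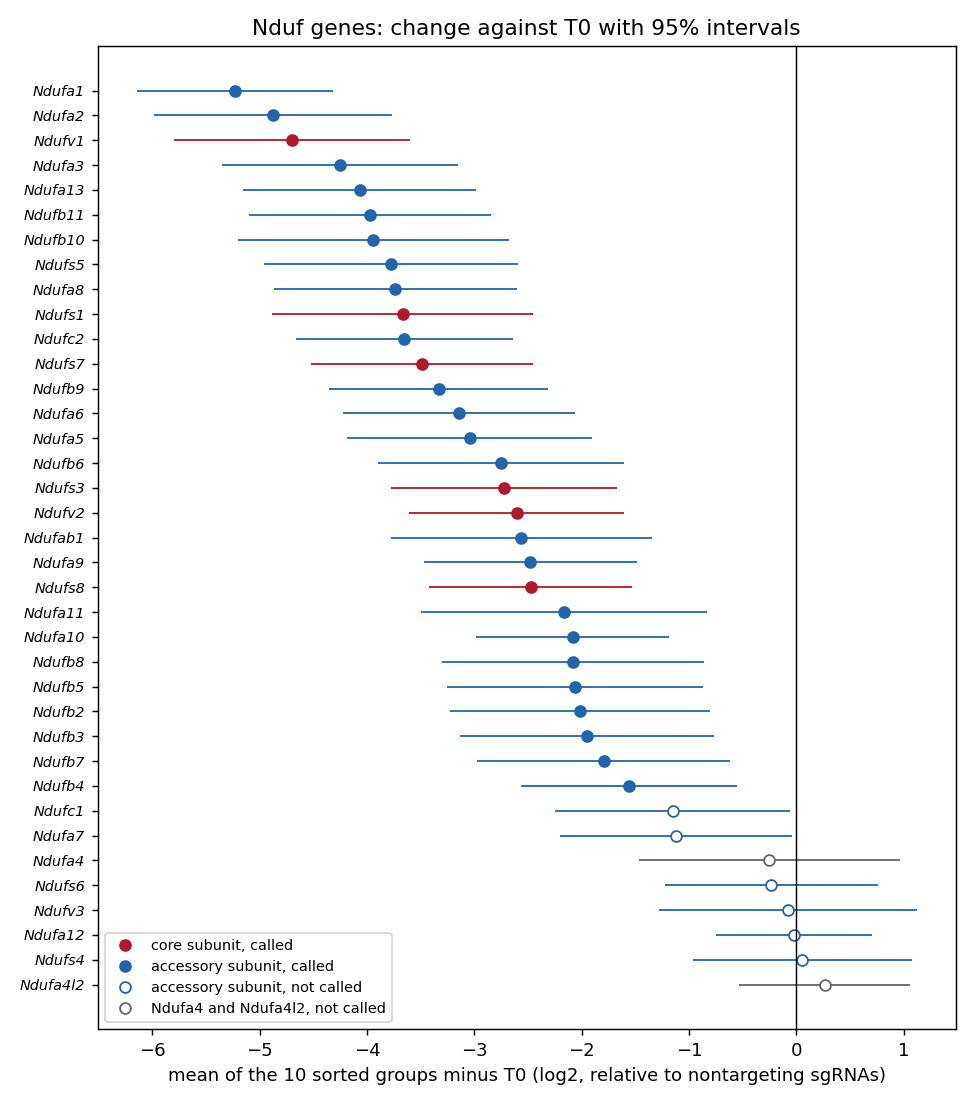
Change of 37 of the 38 Nduf genes (vertical axis, ordered) averaged over the 10 sorted groups minus T0 (horizontal axis, log2 relative to the nontargeting sgRNAs), with 95% intervals from limma. Filled points passed an adjusted p of 0.05. The 6 core subunits shown (red) and 23 of 29 accessory subunits (blue) are filled and lie between -5.23 and -1.56, and the open points lie between -1.15 and 0.26.

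Nduf genes were called lower in each organ outside the lymph nodes under both treatments. In the primary tumour 23 of the 38 genes were lower under IgG, where 14.3% of all genes were, and 25 were lower under anti-PD-1 (14.4% of all genes). In the lung 25 were lower under IgG (16.2% of all genes) and 27 under anti-PD-1 (17.2%), or 27 and 20 when each group was fitted with T0 alone (14.8% and 15.7%). The liver had 22 under IgG (13.1%) and 13 under anti-PD-1 (9.58%), the latter from a single library. Without liver IgG replicate 3, which left a lone library in that group, its count was 14, and without T0 replicate 3 the count in the liver under anti-PD-1 was 5. In peritoneal metastases 19 were lower under IgG (13.7%) and 26 under anti-PD-1 (15.3%), or 22 without the library whose tissue label names the spleen, and the count in the average over the 10 groups was 30 with and without it. In the spleen 22 were lower under IgG (13.6%) and 24 under anti-PD-1 (14%). For the fits that left out a single library the share of all genes was not taken. The members' share called, from 34.2% to 71.1% over the 10 groups, thus stood above the share of all genes in each group. No Nduf gene was called higher in any of these groups, where under IgG and anti-PD-1 the share of all genes called higher was 0% and 0.144% in the primary tumour, 1.68% and 0.962% in the lung, 0.192% and 0.289% in the liver, 0.0481% and 0.144% in peritoneal metastases and 0.289% and 0.433% in the spleen. Of the 38 genes, 10 were lower in all 10 groups (8.37% of all genes were), 19 in at least 8 (12.2%), 12 in 1 to 7 (9.1%), and 7 in none (78.7%). All 10 groups were set against the same T0 libraries, so their calls are not independent.

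The counts by group depended on how the 5 sgRNAs of a gene were joined. With their median in place of their mean, the 10 groups had 3 to 15 Nduf genes lower, where 3.95% to 12.6% of all genes were. The primary tumour under IgG went from 23 to 3 and the spleen under IgG from 22 to 3, and that share of 7.89% stood close to the 5.49% and 6.5% of all genes. With the summed signal the liver under anti-PD-1 had 2 (3.56% of all genes) and the spleen under IgG 7 (7.7%).

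All 7 core subunits were lower in the average over the 10 groups, and 61 of their 70 gene and group pairs were called. Ndufv1, the subunit that binds NADH and the flavin, fell furthest among them. Its levels were -0.36, 0.05 and 0.47 in T0, and over the 26 sorted libraries they ran from -7.19 to -2.52 with a median of -4.63. In the primary tumour the levels were -5.59, -4.38 and -4.28 under IgG and -5.00, -5.17 and -4.05 under anti-PD-1. All of these lay far below T0. The change was -4.70 (SE 0.54, limma adjusted p = 8.4e-09), and it was called in all 10 groups, from -5.48 to -3.56.

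The other core subunits of the NADH-oxidizing module followed. Ndufs1, the largest core subunit with several iron-sulfur clusters, had T0 levels of -0.30, -0.16 and 0.28 and sorted levels of -5.74 to -1.81 (median -3.97). It changed by -3.67 (SE 0.60, limma adjusted p = 6.4e-06) and was called in 9 groups. Ndufv2, which holds an iron-sulfur cluster next to Ndufv1, had T0 levels of 0.03, 0.33 and 0.52 and sorted levels of -4.81 to -0.66 (median -2.23). Its change was -2.60 (SE 0.49, limma adjusted p = 6.8e-05), with 7 groups called. For both genes no sorted library reached the lowest T0 library.

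In the ubiquinone-reducing module, Ndufs7, which carries the last iron-sulfur cluster before ubiquinone, had T0 levels of -0.45, -0.61 and -0.17 and sorted levels of -5.43 to -1.89 (median -3.85). It changed by -3.49 (SE 0.51, limma adjusted p = 8.5e-07) and was called in all 10 groups. Ndufs3, a core subunit without a metal centre, changed by -2.72 (SE 0.52, limma adjusted p = 7.3e-05) with 8 groups called. Ndufs8, which holds a pair of iron-sulfur clusters, was the core subunit that changed least, by -2.48 (SE 0.47, limma adjusted p = 6.3e-05) with 7 groups called.

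Among the 29 accessory subunits 23 were lower in the average over the 10 groups, and these spanned a wider range than the core. The lowest Nduf gene was Ndufa1, an X-linked subunit of the membrane arm. Its T0 levels of -0.45, 0.05 and 0.28 stood against sorted levels of -6.50 to -3.47 (median -5.23). Its levels in the spleen were -6.16, -4.77 and -4.83 under IgG and -3.47, -6.23 and -4.63 under anti-PD-1. The change was -5.23 (SE 0.45, limma adjusted p = 1.9e-11), which corresponds to a signal 37.7-fold lower on the scale used, and it placed Ndufa1 as the 39th lowest of 2078 genes. Ndufa2, a small subunit of the peripheral arm, came next at -4.88 (SE 0.55), with all sorted levels between -6.30 and -2.45, below its T0 levels of -0.37, 0.28 and 0.60. Ndufa3 changed by -4.25 and Ndufa13, also known as GRIM-19, by -4.07, and both were called in all 10 groups. These 4 were among the 9 accessory subunits below the median of the core subunits. Of the 38 Nduf genes 3 (Ndufa1, Ndufa2 and Ndufv1) were among the 100 lowest genes, a share not far above that of 100 in 2078.

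The remaining called accessory subunits fell into a graded series. Ndufb11 (the other X-linked member), Ndufb10, Ndufs5, Ndufa8, Ndufc2, Ndufb9, Ndufa6 and Ndufa5 changed by -3.97 to -3.04 and were each called in at least 8 groups. Ndufb6, Ndufab1 and Ndufa9 changed by -2.75, -2.56 and -2.48. Ndufab1 is the mitochondrial acyl carrier protein, which also serves fatty acid synthesis in mitochondria, and its change (SE 0.60) was called in 6 groups. Ndufa10, Ndufa11, Ndufb2, Ndufb3, Ndufb4, Ndufb5, Ndufb7 and Ndufb8 changed by -2.16 to -1.56. Of these, Ndufb4 (-1.56, SE 0.49, limma adjusted p = 0.022) and Ndufb7 (-1.80, SE 0.58, limma adjusted p = 0.025) were called in 1 group each. Ndufa11, Ndufb2, Ndufb3, Ndufb4, Ndufb5, Ndufb7 and Ndufb8 were no longer called in the average when the centre was the mean of all sgRNAs, and each of these 7 lost its call without T0 replicate 2 and without T0 replicate 3, at adjusted p-values of up to 0.14. In either case 23 of the 38 genes were called lower in the average, and 27 were without T0 replicate 1.

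The 6 accessory subunits that were not called were Ndufc1, Ndufa7, Ndufs6, Ndufv3, Ndufa12 and Ndufs4. All but Ndufc1 belong to the peripheral arm, around the NADH-oxidizing module. The change of Ndufc1 was -1.15 (SE 0.54, limma adjusted p = 0.22) and that of Ndufa7 was -1.12 (SE 0.53, limma adjusted p = 0.23). Ndufc1 was called lower under 6 of 12 alternative settings, with adjusted p-values of 4.5e-06 to 0.95 over the 12. Ndufa7 was called under 3 of 12 (0.00018 to 0.61), and under these 3 settings 25.4% to 32.3% of all genes were called lower. Ndufa7 was called in the lung under IgG alone, at -3.02 (SE 0.71, limma adjusted p = 0.0014).

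The changes of the other 4 uncalled subunits lay near 0. Ndufs4, an accessory subunit whose deletion is used as a mouse model of Leigh syndrome, had T0 levels of -0.40, -0.27 and -0.62. Its sorted levels ran from -2.05 to 1.93 with a median of -0.35, and the change was 0.05 (95% interval -0.97 to 1.08). Ndufs6 had T0 levels of 0.60, 0.92 and 0.90 and sorted levels of -1.14 to 1.80 (median 0.62), a change of -0.23 (95% interval -1.22 to 0.76). Ndufa12 had sorted levels of -0.88 to 0.80 (median -0.22), a change of -0.02 with the narrowest interval of the 38 genes (-0.75 to 0.70). Ndufv3, the accessory subunit bound to the NADH-oxidizing module, had T0 levels of -0.24, -0.49 and 0.07 and sorted levels of -4.36 to 1.57 (median -0.04). The level of -4.36 was in a lung library under IgG (replicate 1), where 38.4% of nontargeting sgRNAs were at the lowest value. The change of Ndufv3 was -0.08 (95% interval -1.28 to 1.12).

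Ndufa4 and Ndufa4l2, the genes outside complex I, were not called in any group. Ndufa4 had T0 levels of -0.16, 0.00 and 0.32, sorted levels of -3.02 to 1.76 and a change of -0.25 (SE 0.60). Ndufa4l2, known as a gene induced by hypoxia, changed by 0.26 (SE 0.39), the highest value among the 38. The intervals of Ndufa4, Ndufa4l2, Ndufs4, Ndufs6, Ndufa12 and Ndufv3 all lay above -1.56, the change of the least depleted called gene, Ndufb4. That change has its own error, and the interval of Ndufb4, -2.56 to -0.55, overlapped those of all these genes but Ndufa4l2. Differences between these genes and Ndufb4 were not tested. With the mean of all sgRNAs as the centre, which moved the median of all genes from -0.14 to 0.52, the changes of Ndufa4, Ndufs6, Ndufv3 and Ndufa12 were above 0, at 0.40, 0.42, 0.57 and 0.63, and none was called.

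The depletion was carried by most sgRNAs of a gene rather than by single ones. An sgRNA was counted as low when its change, averaged over the 10 groups, was below -1.29, the 5th percentile of the 250 nontargeting sgRNAs. This held for 131 of the 190 Nduf sgRNAs (68.9%), for 19.6% of all gene-targeting sgRNAs and for 13 nontargeting sgRNAs. Among the core subunits it held for 32 of 35 (91.4%), and among the accessory subunits for 99 of 145 (68.3%). All 5 sgRNAs were low for 14 Nduf genes, 4 for 9 genes and 3 for 8 genes. No Nduf gene had exactly 2 low sgRNAs, Ndufc1 had 1, and the 6 genes Ndufa4, Ndufa4l2, Ndufs4, Ndufs6, Ndufa12 and Ndufv3 had none. Over all 2078 genes 206 had 5 low sgRNAs, 96 had 4, 46 had 3, 74 had 2, 338 had 1 and 1318 had none.

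The deposited signals of single sgRNAs show the size of the loss. The 5 sgRNAs of Ndufv1 had mean signals of 217 to 337 in T0 and median signals of 0.22 to 9.43 in the 26 sorted libraries. The most depleted sgRNA of Ndufa1 went from 564 in T0 to a median of 0.40, and it lay at the lowest value in 17 of the 26 libraries. The 5 sgRNAs of Ndufs4, by contrast, had mean signals of 135 to 329 in T0 and medians of 98.3 to 180 in the sorted libraries. Single sgRNAs stood apart within some core genes. In Ndufs7 4 sgRNAs changed by -5.94 to -2.60 and the other by -0.10, and in Ndufs8 the sgRNA with the highest T0 signal, 902, changed by 0.38 while the other 4 changed by -4.55 to -1.31. When the median over the 5 sgRNAs was used in place of the mean, 15 of the 38 genes were called lower in the average over the 10 groups, where 11% of all genes were. The median change of the 38 was then -2.61, and the core genes Ndufs3, Ndufv2 and Ndufs8 were not called.

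**Figure D2:**
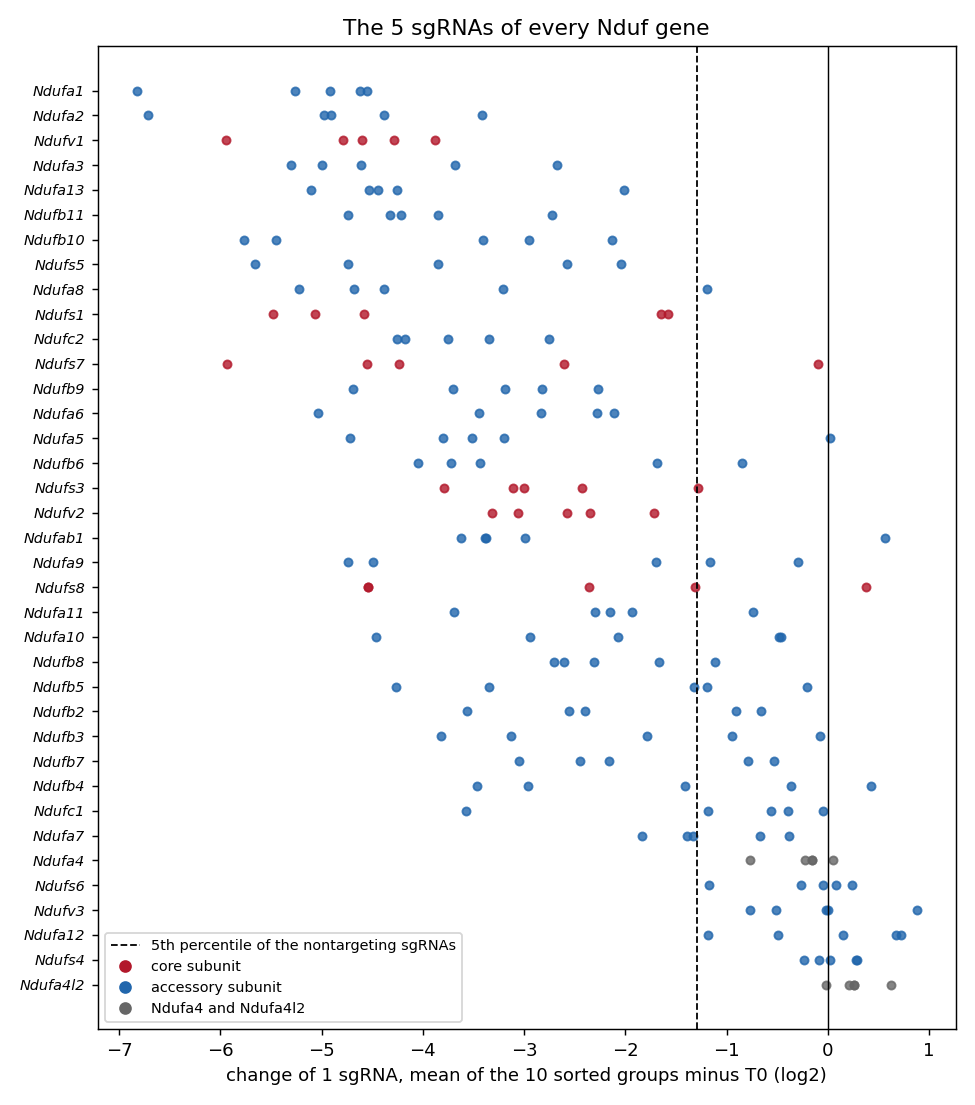
Change of each sgRNA (horizontal axis, log2, average of the 10 sorted groups minus T0) for 37 of the 38 Nduf genes (vertical axis, same order as the gene changes), with the 5th percentile of the nontargeting sgRNAs at -1.29 as a dashed line. For 13 genes all 5 points lie left of the dashed line, and for 6 genes none does.

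Nduf sgRNAs also reached the bottom of the range more often than neutral ones. In the 26 libraries of the 10 groups 6.84% to 65.8% of Nduf sgRNAs lay at their lowest value (median 20.8%). Of the nontargeting sgRNAs 0.4% to 38.4% did (median 3%). The Nduf share was the higher in 26 of 26 libraries. In T0 no Nduf sgRNA was at the lowest value. For an sgRNA at the lowest value the change is bounded by that value, so the most depleted genes could not be ranked further within a sparse library.

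Core subunits were more depleted than accessory ones at the level of medians. The median change was -3.49 over the 7 core subunits, from -4.70 to -2.48, and -2.48 over the 29 accessory subunits, from -5.23 to 0.05. In each of the 10 groups the core median was lower, by 0.23 to 1.48 on the log2 scale. The mean of these 10 differences, core minus accessory, was -0.79, and it was -0.38 with a pseudocount of 10 and -0.48 with the summed signal. By library the core median minus the accessory median, each as a change against the T0 library with the same number, ran from -2.32 to 0.23 with a median of -0.97 and an SD of 0.58, and it was below 0 in 23 of 26 libraries. The gap was smaller among called genes, because every uncalled complex I subunit was an accessory one, and the 23 called accessory subunits alone had a median of -3.04. The classes overlapped widely, since Ndufa1 and Ndufa2 were below all core subunits and Ndufs8, the highest core subunit, was above 15 of the 29 accessory ones. No test was made of this difference, because genes of a class are not replicates.

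**Figure D3:**
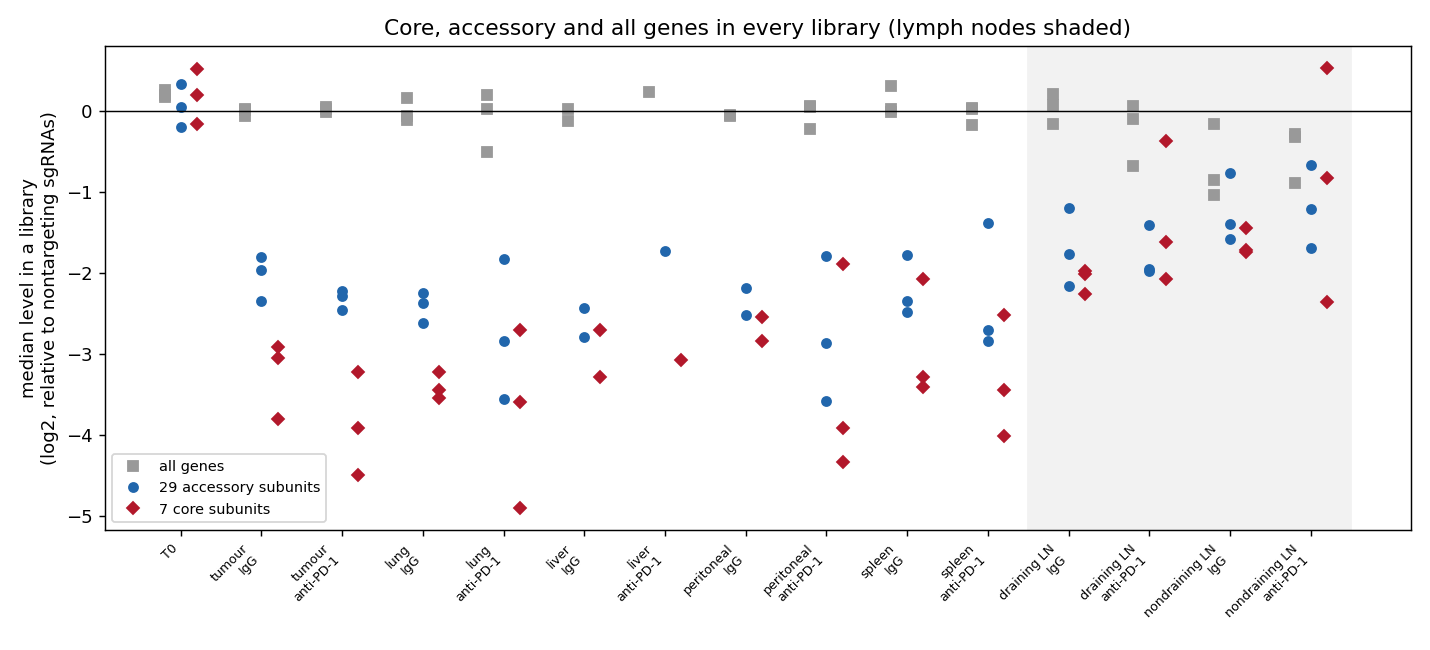
Median level in each of the 41 libraries (vertical axis, log2 relative to the nontargeting sgRNAs) of the 7 core subunits (red diamonds), the 29 accessory subunits (blue circles) and all 2078 genes (grey squares), by group (horizontal axis). In the 10 groups outside the shaded lymph nodes, core and accessory medians of all 26 libraries lie below those of the T0 libraries, while the medians of all genes stay close to 0.

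In the 3 T0 libraries the core medians lay slightly above the accessory ones, at levels of -0.15, 0.20 and 0.52 beside -0.20, 0.05 and 0.33.

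Organs were compared by a limma F-test over the 5 organs outside the lymph nodes, with both treatments averaged. None of the 38 genes passed it, where 0.433% of all genes did, and 4 Nduf genes had an unadjusted p under 0.05, as did 7.8% of all genes. The smallest p was that of Ndufs3 (limma adjusted p = 0.071), whose levels were lower in the lung. Under IgG they were -4.86, -5.80 and -4.09 in the lung and -1.57, -2.40 and -1.35 in the primary tumour, and these libraries did not overlap. Under anti-PD-1 they were -1.87, -4.90 and -3.03 in the lung and -1.86, -1.97 and -2.64 in the primary tumour, which did overlap. Ndufs3 was picked by its p from these same libraries, so their separation under IgG is no separate evidence. The lung minus tumour difference of Ndufs3 was -2.12 (SE 0.49, limma adjusted p = 0.061). The F-test called Ndufs3 with replicate numbers as a block (adjusted p = 0.019) and with the nontargeting median as the centre (adjusted p = 0.010). Ndufs3 was not called when the 6 libraries with over 10% of nontargeting sgRNAs at the lowest value were left out, 4 of them from the lung. Of the single differences from the primary tumour no Nduf gene was called, where 0% of all genes were in the lung, the liver and peritoneal metastases and in the spleen 0.0481% were lower and 0.241% higher. Over the 38 genes the median differences from the primary tumour were -0.18 in the lung, 0.16 in the liver, -0.08 in peritoneal metastases and 0.01 in the spleen, and the median half-width of the 95% interval of a single gene was 1.03 to 1.31.

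Anti-PD-1 was compared with IgG within each organ. In the shared fit no Nduf gene was called in the primary tumour, the liver, peritoneal metastases or the spleen, where 0% of all genes were called in each, and 0, 2, 1 and 3 Nduf genes had an unadjusted p under 0.05 (0.674%, 4.48%, 5.15% and 7.75% of all genes). When the primary tumour was fitted on its own libraries, 9 of the 38 Nduf genes had an unadjusted p under 0.05. That share stood above the 8.33% of all genes at this level, and 0 Nduf genes and 3 of all genes were called. Peritoneal metastases and the spleen, fitted in that way, had 1 and 4 Nduf genes at that level (5.82% and 5.97% of all genes), with none called. Averaged over the 5 organs none was called either, where 0.481% of all genes were lower and 0.866% higher. The smallest adjusted p was that of Ndufa5 (-1.26, SE 0.38, limma adjusted p = 0.096), a small subunit of the peripheral arm. At an unadjusted p under 0.05 there were 6 Nduf genes (15.8%) and 15.8% of all genes. Of the Nduf genes 5 were lower (13.2%, against 6.79% of all genes) and 1 higher (2.63%, against 9.05%). The median difference of the 38 genes was -0.02, with 19 genes higher and 19 lower under anti-PD-1, and the median half-width of the 95% interval of a single gene was 0.74. Smaller differences would thus not have been resolved.

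In the lung 2 Nduf genes were called in opposite directions, where 2.36% of all genes were called lower and 1.2% higher under anti-PD-1. At an unadjusted p under 0.05 there were 11 Nduf genes (28.9%) and 21% of all genes. With the lung libraries fitted alone these were 5 Nduf genes and 6.3% of all genes. Ndufb9, a subunit of the membrane arm, had levels of -2.04, -0.65 and -0.66 under IgG and -3.39, -6.01 and -2.91 under anti-PD-1, a difference of -2.99 (SE 0.67, limma adjusted p = 0.015). Ndufa7 had levels of -4.52, -3.21 and -2.30 under IgG and -0.17, -0.53 and -0.49 under anti-PD-1, a difference of 2.94 (SE 0.71, limma adjusted p = 0.023). Neither pair of groups overlapped, but both genes were picked by this difference in these same libraries. Their separation is therefore no separate evidence for the calls. The lung libraries were the sparsest outside the lymph nodes, with 5.2% to 38.4% of nontargeting sgRNAs at the lowest value, and they entered that test with a spread estimated over all organs. On data simulated from the nontargeting sgRNAs, this fit called unchanged genes more often in the lung than in the other organs against T0. Between treatments only the lung was simulated, so whether the lung differs from the other organs in that comparison was not tested. The rates of these calls are not given here. With the 6 lung libraries fitted alone, or with a weight estimated for each library, neither gene was called (adjusted p of 0.74 and 0.66 for both). Without lung IgG replicate 1 the difference of Ndufa7 was 2.35 (adjusted p = 0.086), and without lung anti-PD-1 replicate 2 that of Ndufb9 was -2.04 (adjusted p = 0.071). Whether the differences varied between organs was tested by a treatment-by-organ F-test, which called no Nduf gene and 0% of all genes, with 3 Nduf genes (7.89%) and 4.96% of all genes at an unadjusted p under 0.05.

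**Figure D4:**
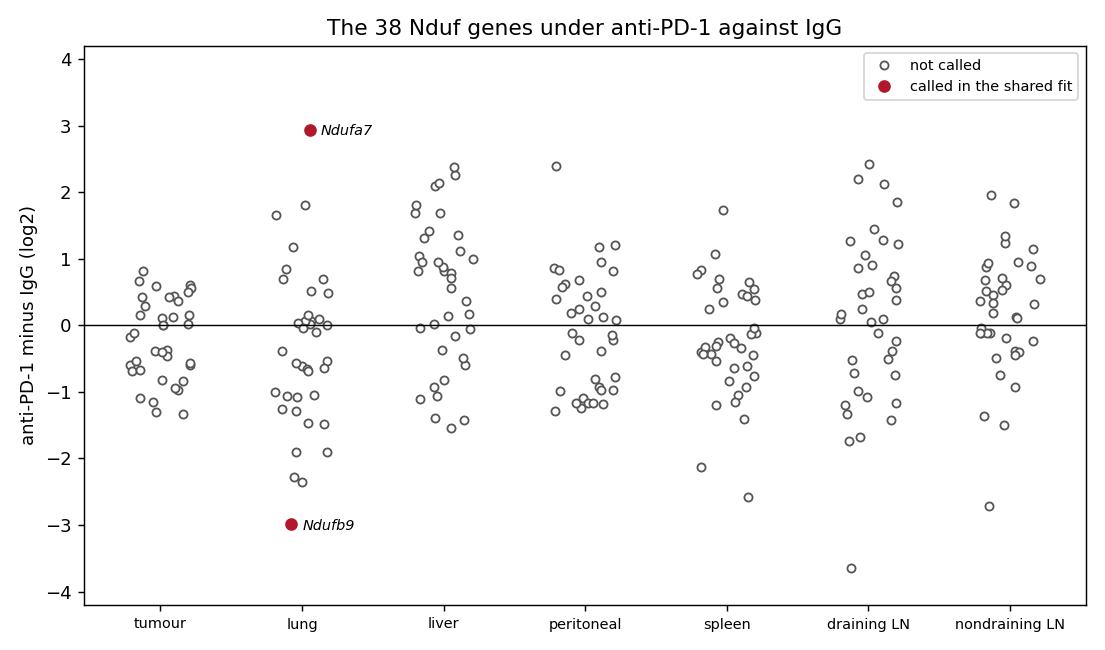
Difference between anti-PD-1 and IgG (vertical axis, log2) for each of the 38 Nduf genes in each organ (horizontal axis), with each point a gene and the called ones filled. The points scatter around 0, and the 2 filled points, Ndufa7 at 2.94 and Ndufb9 at -2.99, are both in the lung.

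In lymph nodes no Nduf gene was called against T0, and neither was any other gene (0% in each of the 4 groups). At an unadjusted p under 0.05, 14 Nduf genes were lower in the draining nodes under IgG (36.8%, against 8.23% of all genes) and 14 under anti-PD-1 (8.57% of all genes). In the nondraining nodes 6 (15.8%, against 4.67%) and 3 (7.89%, against 3.99%) were lower. None was higher in either kind of node, where few of all genes were. Under IgG and anti-PD-1 these were 1.97% and 2.69% in the draining nodes and 2.36% and 2.07% in the nondraining nodes. The median change per library was below 0 in all 12 node libraries, from -2.17 to -0.49, where that of all genes ran from -1.11 to -0.04. There 67.4% to 94.7% of the Nduf sgRNAs and 49.6% to 94% of the nontargeting ones lay at their lowest value. Changes in the nodes were thus bounded by that value for most sgRNAs. Ndufa1, the lowest gene elsewhere, had levels of -2.59, -2.13 and -1.72 in the draining nodes under IgG and of -1.09, -1.44 and -2.05 in the nondraining nodes under anti-PD-1. Anti-PD-1 against IgG called 0 Nduf genes in either kind of node (0% of all genes), with 4 and 2 at an unadjusted p under 0.05 (12% and 11.7% of all genes).

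The rest of the respiratory chain was read in the same way, in the average over the 10 groups against the 16.1% of all genes called lower. Of the 36 complex I subunits in the library 30 were lower (83.3%), at a median change of -2.66. All 4 subunits of complex II, succinate dehydrogenase, were lower, from -4.76 (Sdha) to -3.20 (Sdhd). Complex III, which passes electrons from ubiquinol to cytochrome c, had 7 of 9 genes lower (median -3.05, lowest Uqcrc1 at -4.62). The ATP synthase, complex V, had 12 of 15 lower (median -2.69, lowest Atp5a1 at -5.12). Complex IV, cytochrome c oxidase, had 4 of 18 lower, Cox7b, Cox6c, Cox5a and Cox4i1, at a median of -0.44. That list held isoforms restricted to certain tissues, such as Cox7a1, Cox6a2 and Cox8b, so its share is not directly comparable with the others. Common subunits were also among its uncalled genes, such as Cox6b1 (-1.32), Cox8a (-0.49) and Cox5b (-0.39). How far the restricted isoforms lowered the share was not tested. Acad9, needed to assemble complex I and the only assembly factor in the library, changed by -1.92 (SE 0.66, limma adjusted p = 0.040). It was called lower in 2 of the 10 groups.

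The library also targeted the 7 complex I genes of mitochondrial DNA, ND1 to ND6 and ND4L, with 5 sgRNAs each. None was called, and their changes ran from -0.42 (ND4L) to 0.63 (ND6) with a median of 0.17. Of the gene and group pairs of these 7 genes 0 of 70 were called lower, against 226 of 360 for the nuclear subunits of the same complex. Whether these sgRNAs cut mitochondrial DNA was not measured, so these values do not tell whether losing the 7 genes changes abundance.

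**Figure D5:**
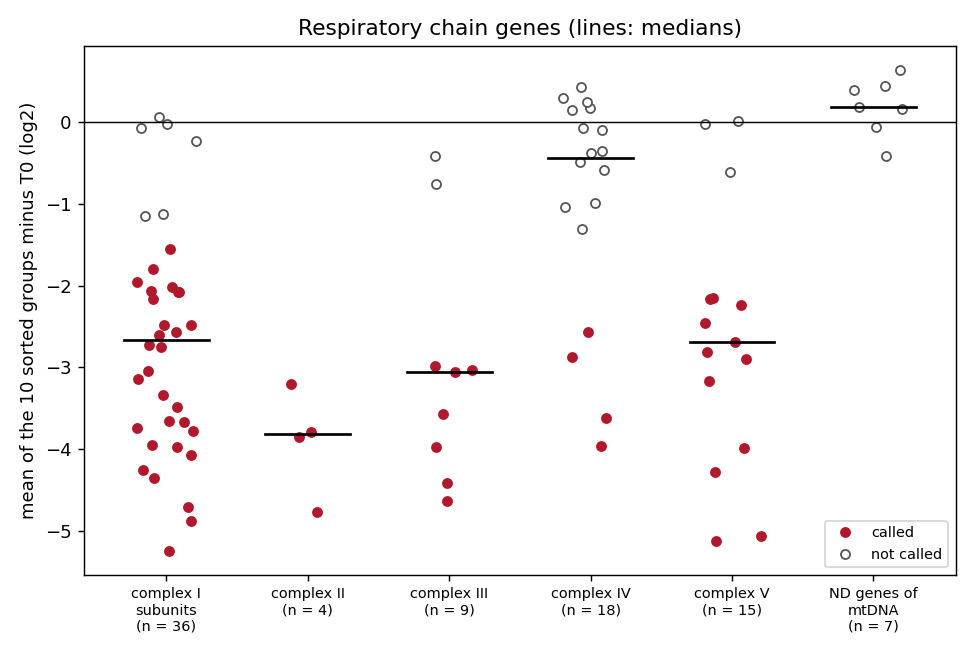
Change of each gene (vertical axis, log2, average of the 10 sorted groups minus T0) by complex of the respiratory chain (horizontal axis), with lines at the medians and filled points for genes called at an adjusted p of 0.05. Complexes I, II, III and V have medians between -3.82 and -2.66, complex IV lies at -0.44, and the ND genes of mitochondrial DNA lie around 0.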

How the data were processed

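The deposited table gives a signal for every sgRNA in each library. Reads had been counted by the authors with MAGeCK-VISPR, scaled by the nontargeting sgRNAs and adjusted between organs with ComBat. The settings of ComBat and the genome build of the sgRNAs are not given in the sources used here. Because the signal is no longer a count, no count test was run. An adjustment between organs can shrink differences between them.

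From the signal, log2(value + 1) was averaged per gene over its 5 sgRNAs, minus the mean of the 250 nontargeting sgRNAs. limma 3.58.1 in R 4.3.3 fitted T0 with the 10 groups outside the lymph nodes (1 mean per group, 18 residual and 15.5 prior degrees of freedom), and T0 with the 4 lymph node groups (10 and 18.2), with no replicate block. p-values were adjusted over 2078 genes by Benjamini-Hochberg. The average of the 10 groups and the treatment-by-organ test were added after the data were seen. The script was tested on simulated data, where the fit with a shared spread called unchanged genes against T0 more often in the lung than in the other organs. Figures used matplotlib 3.10.9. All Nduf genes were accounted for, and named with values were the core subunits, the genes called in any comparison, Ndufv3 and the extremes of the others. Members and lists were chosen with earlier results of these data known. Sequences of the sgRNAs were not used here, and 1 member is counted but not reported by itself.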

Additional observations from a re-analysis of the deposited data

How the results depend on the processing

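The counts of Nduf genes lower than in T0 depended mostly on how the 5 sgRNAs were joined. With the median of the sgRNAs, 15 were called in the average over the 10 groups (11% of all genes), all among the 30, and by group 3 and 11 in the primary tumour (IgG and anti-PD-1), 14 and 15 in the lung, 9 and 3 in the liver, 6 and 12 in peritoneal metastases and 3 and 8 in the spleen. With that median 3.95% to 12.6% of all genes were lower by group. Counts that moved by over 1.5 times with the summed signal were 17 in the lung under anti-PD-1 (13.1% of all genes) and 7 in the spleen under IgG (7.7%). They were also 10 and 17 in peritoneal metastases (6.35% and 11.8%) and 2 in the liver under anti-PD-1 (3.56%). The liver moved with other settings too. Under IgG it had 14 with the mean of all sgRNAs as the centre, and under anti-PD-1 it had 24 without centring, 7 in 1 fit of all libraries, 33 with only the 2 groups compared and 26 with a weight for each library. Peritoneal metastases under IgG had 30 with only the 2 groups compared (20.2% of all genes). The other alternatives kept the count of each group within 1.5 times.

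In the lymph nodes 152 of 152 pairs of gene and group were called without centring, where 97% to 99.1% of all genes were lower. With the summed signal there were 7, all in the nondraining nodes under IgG (8.23% of all genes). With only the 2 groups compared there were 5, all in the draining nodes under IgG (5.15%). The fit of all libraries gave 5. Anti-PD-1 against IgG, averaged over organs, called 1 Nduf gene with the summed signal (Ndufb2) and 1 without the 6 sparse libraries (Ndufab1). In the lung 1 was called with the nontargeting median (Ndufa7), 1 without centring (Ndufa7), 1 without the lowest 10% of sgRNAs (Ndufb9), 1 without the sparse libraries (Ndufab1, neither of the 2) and 0 in 1 fit of all libraries, with a weight for each library, or from the lung libraries alone. With the median of the sgRNAs or the summed signal Ndufa7 stayed called and Ndufb9 gave way to Ndufa9 or Ndufs3. The F-test over organs called 2 with the nontargeting median (Ndufs3, Ndufc2), 1 with the mean of all sgRNAs (Ndufs3), 5 without centring, 1 without the lowest 10% of sgRNAs (Ndufc2), 2 without the sparse libraries (Ndufa4, Ndufb9) and 1 with the replicate block (Ndufs3). For most of these treatment and organ calls the share of all genes was not taken, and the cause of the moves was not tested.

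Leaving out each library in turn gave 17 to 25 and 21 to 26 Nduf genes lower in the primary tumour (IgG and anti-PD-1), 23 to 28 and 20 to 29 in the lung, 14 to 23 and 5 to 14 in the liver, 16 to 22 and 21 to 26 in peritoneal metastases, 19 to 24 and 20 to 24 in the spleen, and 23 to 30 in the average. It gave 0 to 1 for anti-PD-1 against IgG, 1 to 3 for the lung alone, 0 to 1 for organs and 0 in the nodes. The share of all genes was not taken beside these counts. Calls of 1 for anti-PD-1 against IgG arose without lung IgG replicate 3, peritoneal metastases anti-PD-1 replicate 3, spleen IgG replicate 1 or spleen anti-PD-1 replicate 1. Calls of 1 for organs arose without lung IgG replicate 3, lung anti-PD-1 replicate 1 or spleen IgG replicate 2. Core minus accessory kept its sign, from -0.94 to -0.38 over the alternatives.

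Uncalled genes near 0 changed sign. Ndufa4 was 0.40 and Ndufs6 0.42 with the mean of all sgRNAs, where Ndufv3 was 0.57 and Ndufa12 0.63. With the median of the sgRNAs Ndufs6 was 0.011, Ndufv3 0.069 and Ndufa12 0.25. Ndufs4 was -0.36 and Ndufa4l2 -0.15 with the nontargeting median, -0.94 and -0.73 without centring, -0.17 and -0.11 with the summed signal. Ndufs4 was -0.12 without the lowest 10% of sgRNAs, -0.12 without the sparse libraries and -0.13 with a weight for each library. Leaving out each library gave Ndufv3 -0.22 to 0.062, Ndufa12 -0.12 to 0.023 and Ndufs4 -0.039 to 0.14.

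Not every pair of same-numbered libraries deviated together. Correlations were -0.36 to 0.15 for T0 with sorted libraries and -0.15 to 0.27 between sorted libraries, where 25 of 63 same-numbered pairs and 3 of 126 others were over 0.1. Sorted libraries of the same number thus deviated together more often than others did. The main fit took all libraries as independent. The replicate block was run as an alternative. It gave the same 30 genes in the average and called Ndufs3 between organs. The alternatives that leave out the 6 sparse libraries, weight each library or fit an organ alone were chosen after seeing the data. Liver under anti-PD-1 rests on 1 library assumed to vary like the others. The lost sgRNAs limit the lung and the lymph nodes most, and the depth is unknown.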
